A study of Homo sapiens with 4 samples.

Results

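LEF1, TCF7, SOX4, BCL11B, IKZF1, IKZF2, IKZF5, SATB1, TOX and ETV6 encode transcription factors of early T cell development that lie outside the TAL1 oncogenic circuit. These 10 genes were chosen by name from 64252 gene identifiers, each symbol matched 1 identifier, and all 10 were among the 17461 identifiers with enough counts to be tested. Transcripts were measured by RNA sequencing in J.gamma1, a T-cell acute lymphoblastic leukemia line derived from human Jurkat cells, which lacks phospholipase C gamma 1. Of 4 libraries, 2 came from J.gamma1 cells with a short hairpin RNA against ELOVL5, an elongase of polyunsaturated fatty acids (shELOVL5), and 2 from J.gamma1 cells with a control hairpin (shNC). All 4 share the single parental line, and the sources used here give neither the hairpin sequences nor whether replicates were separate cultures. The errors below therefore rest on the spread between these libraries, which may be technical. Standard errors (SE) and intervals also draw on the spread of other genes, while SDs do not. The count columns of all 4 libraries also carry the tag D4, whose meaning was not established here. The list was drawn up with values of the same comparison in view. Fold changes of its members are therefore a description, and their passing or missing of a threshold supports nothing by itself.

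In the thymus, NOTCH signalling switches on TCF7, whose product TCF-1 opens chromatin at T cell genes and helps to activate BCL11B, the zinc finger factor that fixes commitment to the T lineage. LEF1 is the partly redundant partner of TCF-1. Both bind DNA through a high mobility group (HMG) box and can act with beta-catenin or with corepressors of the TLE family. SOX4 and TOX also carry HMG boxes. Ikaros (IKZF1) and its relatives Helios (IKZF2) and Pegasus (IKZF5) are zinc finger proteins, and Ikaros, which recruits the NuRD chromatin complex, is a tumour suppressor in T-cell leukemia. SATB1 organises chromatin loops in thymocytes, and ETV6 is a repressor of the ETS family that is often rearranged in leukemia.

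Total counts per library lay between 16254002 and 17338719, and 3 counts equalled 0.172 to 0.187 CPM, the unit of library-scaled counts used throughout (trimmed mean of M-values, TMM). The targeted gene ELOVL5 stood at 71.8 and 70.0 CPM in shELOVL5 libraries, against 342 and 353 CPM in shNC libraries, 4.90-fold lower. The line's T cell identity was seen in both groups. The 10 T cell marker genes, such as CD3E and LCK, were all above 3 counts in every library and summed to 1755.5 and 1731 CPM in shELOVL5, against 1744 and 1759 CPM in shNC. Within that sum CD3E and CD3G rose (log2 fold changes 0.32 and 0.25), CD3D, CD247, LCK and ZAP70 fell (-0.26, -0.28, -0.17 and -0.18), and the other 4 did not pass. CD3E and CD3D passed under all 12 alternatives, whereas CD3G, CD247, LCK and ZAP70 each did not pass with at least 1 library left out. The 7 markers of B cells summed to 29.1 to 32.6 CPM in shELOVL5 and 43.5 to 50.2 CPM in shNC, mostly from CD79A, while MS4A1 and PAX5 had at most 5 counts in any library. The 8 myeloid markers summed to 1.15 to 1.37 CPM in shELOVL5 and 1.00 to 2.24 CPM in shNC, with LYZ, CSF1R and FCGR3A at 0. The 7 erythroid markers summed to 0.744 to 0.787 CPM in shELOVL5 and 2.12 to 2.43 CPM in shNC, with HBB, HBG1 and ALAS2 at 0. The 8 epithelial and fibroblast markers summed to 13.2 to 13.9 CPM in shELOVL5 and 12.6 to 13.1 CPM in shNC, with EPCAM, CDH1, COL1A2 and COL3A1 at 0. The part of these marker differences in the results below was not tested.

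Among the 10 regulators, 6 fell, 1 rose and 3 did not pass an adjusted p of 0.05 in the fit across all genes (edgeR quasi-likelihood test, Benjamini-Hochberg adjustment). Over all tested genes 11.2% fell and 9.22% rose, 20.4% in all. SOX4, LEF1, TOX, IKZF1, BCL11B and IKZF2 fell, and ETV6 rose. The median log2 fold change of the 10 genes (shELOVL5 over shNC) was -0.25, and that of all tested genes was 0.006. For all 10 genes the CPM values of the groups did not overlap, which was also so for 60.1% of tested genes.

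**Figure D1:**
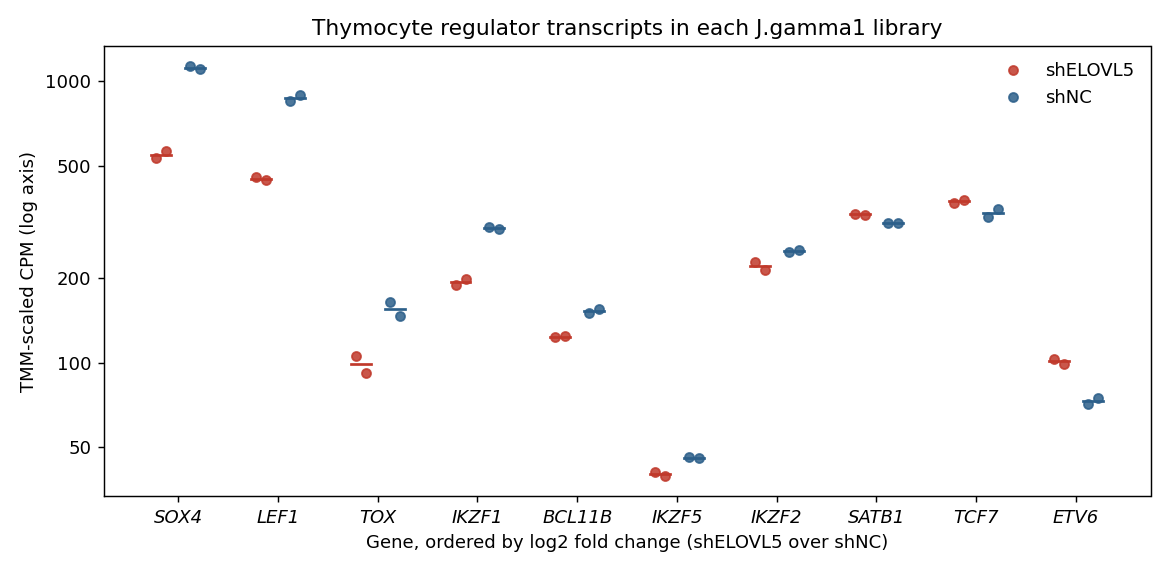
TMM-scaled CPM on a log axis for the 10 regulators in each library, with shELOVL5 libraries left of shNC libraries, points for libraries and short lines for group means. The SOX4 and LEF1 points of the groups lie far apart, with SOX4 at 533 and 566 CPM in shELOVL5 against 1131 and 1108 CPM in shNC, while the SATB1 and TCF7 points lie close together.

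Of the 4 HMG box genes, SOX4 and LEF1 had the lowest fold changes of the 10 regulators, TOX lay close to IKZF1, and TCF7 did not fall. TOX and IKZF1 had log2 fold changes of -0.65 and -0.64, and TOX was the less lowered of the pair without shELOVL5 replicate 2 (-0.55 and -0.68) and without shNC replicate 1 (-0.57 and -0.63). SOX4, a single-exon gene (ENSG00000124766, GRCh38 chromosome 6, 21592768 to 21598619), encodes a factor of the SOX C group that thymocytes and B cell progenitors need in mice. It gave 9317 and 9351 counts in shELOVL5 libraries, against 19214 and 17779 counts in shNC libraries, or 549.6 ± 23.2 CPM against 1119.5 ± 16.4 CPM (SD, n = 2 each). Both shELOVL5 libraries were far below both shNC libraries, and SOX4 was 2.04-fold lower (log2 fold change -1.03, SE 0.0389, 95% interval -1.11 to -0.94). In these bulk libraries, fewer cells with a transcript and less of it per cell cannot be told apart.

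LEF1 (ENSG00000138795, chromosome 4, 108047545 to 108168956) had 456 and 446 CPM in shELOVL5, against 855 and 893 CPM in shNC. The libraries of each group lay close together, and LEF1 was 1.94-fold lower (log2 fold change -0.96, SE 0.0380, 95% interval -1.04 to -0.87). LEF1-AS1, an RNA gene on the opposite strand that overlaps the start of LEF1, had 246 and 332 counts in shELOVL5, against 322 and 340 in shNC, far fewer than LEF1. Among the 2575 tested genes averaging 100 CPM or more, SOX4 ranked 20 and LEF1 ranked 23 from the lowest log2 fold change. By distance between centred log2 CPM values over the 4 libraries, among 9027 genes averaging 10 CPM or more, the genes most like LEF1 were EEF2, TMTC4 and SLC1A5 (distances of 0.0360, 0.0464 and 0.0487 on the log2 scale). EEF2, a translation elongation factor gene, was at 1398 and 1388 CPM in shELOVL5, against 2590.1 and 2695 CPM in shNC.

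TCF7 (ENSG00000081059, chromosome 5, 134114711 to 134151865) pointed the other way, with 371 and 379 CPM in shELOVL5, against 329 and 353 CPM in shNC. The gap between the groups was about the size of the spread within shNC. The log2 fold change was 0.14 (SE 0.0450, unadjusted 95% interval 0.04 to 0.24). It missed the threshold with all 4 libraries (adjusted p = 0.0544), and passed without shNC replicate 2 (0.18, adjusted p = 0.0167). It also passed by DESeq2, by total counts alone, with a filter of 1 CPM in 2 libraries and with a replicate block (adjusted p = 0.0219 to 0.0437), and its adjusted p over all 12 alternatives ran from 0.0167 to 0.259. The end of TCF7 overlaps SKP1 on the opposite strand, and SKP1 fell (log2 fold change -0.20, adjusted p = 0.0367), though not without shELOVL5 replicate 1 (0.109), shELOVL5 replicate 2 (0.192) or shNC replicate 1 (0.173). The count ratio of LEF1 to TCF7, which does not depend on library scaling, was 1.23 and 1.18 in shELOVL5, against 2.60 and 2.53 in shNC.

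TOX (ENSG00000198846, chromosome 8) is required for CD4 T cell development in mice. It gave 106 and 91.9 CPM in shELOVL5, against 164 and 147 CPM in shNC. Its libraries were more scattered than those of LEF1, yet the groups did not overlap, and TOX was 1.57-fold lower (log2 fold change -0.65, SE 0.0808, 95% interval -0.84 to -0.47). Leaving out 1 library at a time gave log2 fold changes of -0.77 to -0.55, all past the threshold.

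**Figure D2:**
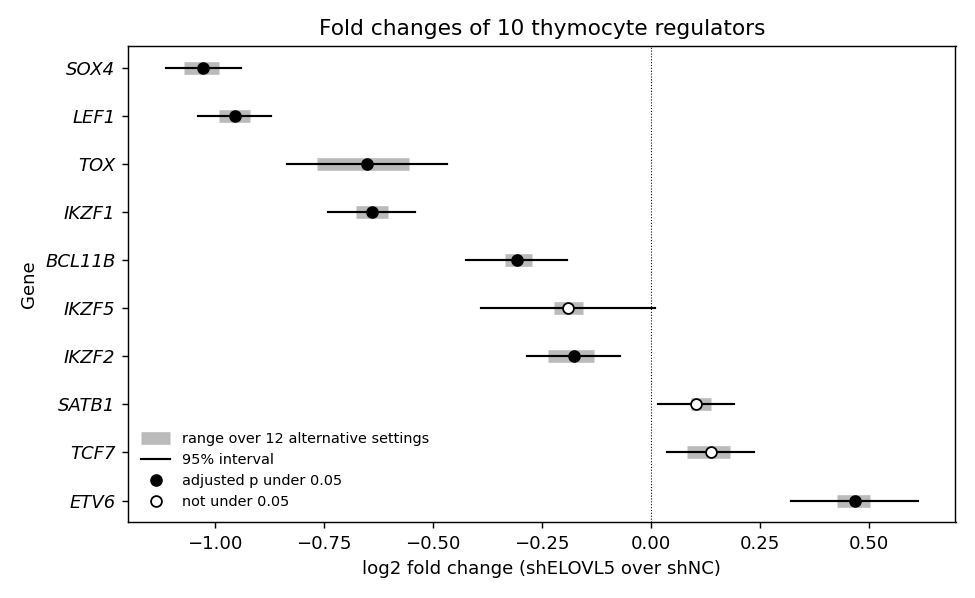
Log2 fold changes (shELOVL5 over shNC) of the 10 regulators, with black lines for unadjusted 95% intervals and grey bars for the range over 12 alternative settings. Filled points, from SOX4 at -1.03 to ETV6 at 0.47, had an adjusted p under 0.05, and the 3 open points (IKZF5, SATB1 and TCF7) did not.

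Among the Ikaros family members of the list, IKZF1 fell, and IKZF2 and IKZF5 differed less. IKZF1 (ENSG00000185811, chromosome 7, 50304068 to 50405101) had 188 and 198 CPM in shELOVL5, against 303 and 299 CPM in shNC. Replicates were within 10 CPM of each other and the groups were over 100 CPM apart, with a log2 fold change of -0.64 (SE 0.0451, 95% interval -0.74 to -0.54), or 1.56-fold lower. IKZF2 (ENSG00000030419, chromosome 2, 212999691 to 213152427), expressed in regulatory T cells and some thymocytes, was at 228 and 213 CPM in shELOVL5, against 247 and 251 CPM in shNC. The groups did not overlap, and the nearest libraries of the groups lay not much farther apart than the 2 shELOVL5 libraries. Its log2 fold change of -0.18 (SE 0.0480) passed with all 4 libraries (adjusted p = 0.0250), but not without shELOVL5 replicate 2 (-0.13, adjusted p = 0.206), without shNC replicate 2 (-0.17, 0.0628), by total counts alone (-0.14, 0.0581) or with no low-count filter (-0.18, 0.0725). IKZF5 (ENSG00000095574, chromosome 10, 122990806 to 123008817), a factor best known from platelet formation, stood at 40.9 and 39.6 CPM in shELOVL5, against 46.0 and 45.8 CPM in shNC. The log2 fold change was -0.19 (SE 0.0897, 95% interval -0.39 to 0.01) and missed the threshold in the fit and under each of the 12 alternatives, so that a fall of up to 0.39 was within the interval. The count ratio of IKZF1 to IKZF2 was 0.827 and 0.931 in shELOVL5, against 1.23 and 1.19 in shNC.

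BCL11B (ENSG00000127152, chromosome 14, 99169287 to 99271524) fell by a smaller step. It was at 123 and 124 CPM in shELOVL5, against 151 and 156 CPM in shNC, with close replicates in both groups. The log2 fold change was -0.31 (SE 0.0521, 95% interval -0.42 to -0.19), which is 1.24-fold lower. SATB1 (ENSG00000182568, chromosome 3, 18345387 to 18445588) had 337 and 336 CPM in shELOVL5, against 314 and 313 CPM in shNC. The groups did not overlap, but the log2 fold change was 0.10 (SE 0.0392, unadjusted 95% interval 0.02 to 0.19) and did not pass (adjusted p = 0.0946), except by total counts alone (0.14, adjusted p = 0.0291), a scaling that moved the median of all genes to 0.042. The gene TBC1D5 covers most of SATB1 on the same strand, and it rose (log2 fold change 0.29, adjusted p = 0.0140), though not without shELOVL5 replicate 1 (0.140) or shNC replicate 1 (0.0649). The labels do not say how reads in shared stretches were assigned.

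ETV6 (ENSG00000139083, chromosome 12, 11649854 to 11895402) was the member that rose. Its level was 103 and 99.2 CPM in shELOVL5, against 71.2 and 75.0 CPM in shNC. The groups were well apart, and ETV6 was 1.38-fold higher (log2 fold change 0.47, SE 0.0656, 95% interval 0.32 to 0.61), with values of 0.43 to 0.50 over the 12 alternatives, all past the threshold. The genes most like ETV6 over the 4 libraries were DVL3, MOB3C and LSM11 (distances of 0.0282, 0.0289 and 0.0356 on the log2 scale). DVL3, which encodes a transducer of WNT signals, was at 219 and 207 CPM in shELOVL5, against 153 and 159 CPM in shNC.

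RefSeq start sites on GRCh38.p14 were available for 9 of the 10 genes, in 17 windows of 250 bases before a start. Cores were searched on both strands, among them CTTTGA for TCF/LEF factors (in 11.2% of all windows) and TGGGAA for Ikaros (in 20.8%). Cores for RUNX (in 11% of all windows), E-box (14%), ETS (16.5%) and GATA (9.17%) factors were searched too. Windows of LEF1, IKZF1, IKZF2, IKZF5 and SATB1 held the RUNX core, and windows of SOX4 and IKZF1 the E-box. Windows of TCF7 and SATB1 held the ETS core, and a window of IKZF1 the GATA core. Of the 17 windows, 1, that of IKZF2, held this TCF/LEF core, and 5 held the Ikaros core: 1 each of LEF1, TCF7, SOX4, IKZF1 and ETV6. Only the letters CTTTGA and TCAAAG were searched for TCF/LEF factors, so other forms of the core are neither counted nor marked. The windows of ETV6, of the second TCF7 start and of IKZF2 are shown because each holds a core for a factor whose gene fell and none overlaps an annotated exon. Capitals mark the TCF/LEF and Ikaros cores only, and a match is a description of letters, not a site of binding. The ETV6 window is chr12:11649424-11649673 (plus strand), the TCF7 window is chr5:134123368-134123617 (plus strand) and the IKZF2 window is chr2:213152457-213152706 (minus strand).
ETV6: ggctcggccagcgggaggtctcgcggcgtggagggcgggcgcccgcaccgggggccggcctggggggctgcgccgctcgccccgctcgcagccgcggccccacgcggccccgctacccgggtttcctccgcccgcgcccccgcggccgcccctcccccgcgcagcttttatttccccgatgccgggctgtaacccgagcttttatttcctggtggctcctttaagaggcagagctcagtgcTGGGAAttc
TCF7: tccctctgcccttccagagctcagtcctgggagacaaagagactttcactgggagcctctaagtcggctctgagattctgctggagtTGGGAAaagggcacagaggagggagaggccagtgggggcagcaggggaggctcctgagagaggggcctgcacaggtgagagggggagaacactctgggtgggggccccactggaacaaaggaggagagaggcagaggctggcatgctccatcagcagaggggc
IKZF2: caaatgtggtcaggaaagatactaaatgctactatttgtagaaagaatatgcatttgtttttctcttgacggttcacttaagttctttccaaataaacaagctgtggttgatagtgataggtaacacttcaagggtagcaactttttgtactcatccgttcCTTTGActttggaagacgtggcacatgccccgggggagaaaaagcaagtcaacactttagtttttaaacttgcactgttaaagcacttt

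Levels can be compared between genes only per length, here as CPM per kilobase of the union of annotated exons. In shELOVL5, SOX4 (93.9 ± 3.96) and LEF1 (84.1 ± 1.42) were the highest, followed by TCF7 (37.2 ± 0.578), SATB1 (25.1 ± 0.0576), TOX (23.9 ± 2.39), IKZF2 (18.0 ± 0.875), IKZF1 (17.7 ± 0.612), BCL11B (15.8 ± 0.105), ETV6 (14.3 ± 0.381) and IKZF5 (8.16 ± 0.191). Neighbours SATB1 and TOX, and IKZF2 and IKZF1, overlapped. In shNC, SOX4 (191 ± 2.81) and LEF1 (163 ± 5.03) led by a wider margin, then came TOX (37.6 ± 2.95), TCF7 (33.9 ± 1.70), IKZF1 (27.5 ± 0.260), SATB1 (23.4 ± 0.0659), IKZF2 (20.3 ± 0.223), BCL11B (19.5 ± 0.441), ETV6 (10.3 ± 0.379) and IKZF5 (9.31 ± 0.0336) (SD, n = 2). TOX (39.7 and 35.5) and TCF7 (32.7 and 35.1) did not overlap there, but their nearest libraries lay close together. Among 16289 tested genes with a length, SOX4 ranked 306 in shELOVL5 and 112 in shNC, and LEF1 ranked 371 in shELOVL5 and 144 in shNC. With the longest transcript as length, LEF1 came before SOX4 in both groups (129.7 against 93.9 in shELOVL5, and 251 against 191 in shNC). The levels of TCF7, SATB1 and IKZF1, whose exon unions are much longer than their longest transcripts, then moved by over 1.5 times as well. In shELOVL5 the order after SOX4 became TCF7 (70.2), SATB1 (43.1), IKZF1 (30.6), TOX (23.9), IKZF2 (23.5), ETV6 (16.9), BCL11B (16.3) and IKZF5 (8.84). In shNC it became TCF7 (63.8), IKZF1 (47.7), SATB1 (40.1), TOX (37.6), IKZF2 (26.6), BCL11B (20.1), ETV6 (12.2) and IKZF5 (10.1), so that TOX no longer came before TCF7.

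**Figure D3:**
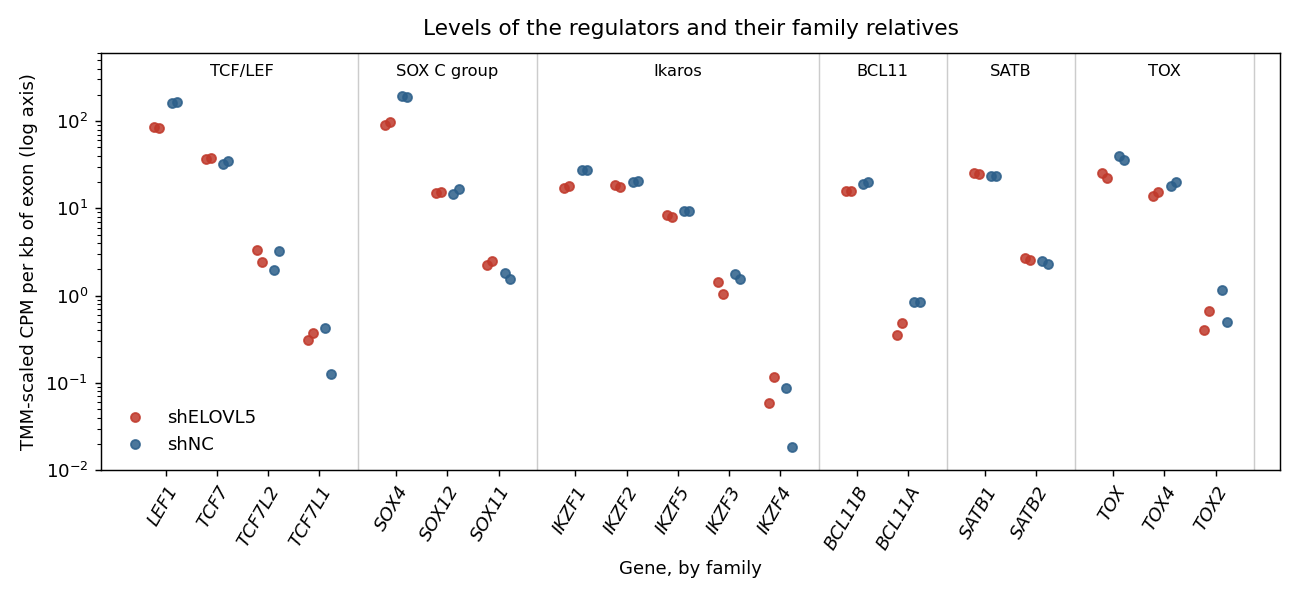
CPM per kilobase of exon on a log axis for the regulators and their family relatives, with shELOVL5 libraries left of shNC libraries. Within each family drawn a regulator of the list is the highest: LEF1, SOX4, IKZF1 or IKZF2, BCL11B, SATB1 and TOX. The relatives SOX5, SOX13 and TOX3 and the ETS genes are not drawn.

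Family relatives did not move as 1 block. Of 16 relatives 13 could be tested, 4 fell and 2 rose, with a median log2 fold change of -0.035. The shares over all tested genes were 11.2% lower and 9.22% higher. ETV7 was at 0 counts in every library, TOX3 had at most 2 counts, and IKZF4 between 2 and 13. ETV5, an ETS factor gene induced by ERK signalling, had 35.3 and 31.8 CPM in shELOVL5, against 83.1 and 87.2 CPM in shNC (log2 fold change -1.34, adjusted p = 3.47e-06). BCL11A, the relative of BCL11B with roles in B cells and fetal haemoglobin silencing, had 9.04 and 12.3 CPM in shELOVL5, against 21.7 and 21.5 CPM in shNC (-1.02, adjusted p = 0.00276). SOX5 and TOX4 also fell (-1.27 and -0.38). ETV3 (0.28) and SOX11 (0.49), named after their values were seen, rose with all 4 libraries, but neither passed without shELOVL5 replicate 1 or 2, without shNC replicate 2, by limma-voom, with robust=FALSE or with no low-count filter, and SOX11 did not pass with a replicate block. SOX11 shares the SOX C group with SOX4 and had 342 and 361 counts in shELOVL5, against 272 and 217 in shNC. SOX12, the third gene of that group, had a log2 fold change of -0.03 (95% interval -0.22 to 0.15), which turned positive without shNC replicate 2 (0.06). IKZF3, which encodes Aiolos, had 248 and 173 counts in shELOVL5, against 298 and 250 in shNC, a log2 fold change of -0.42 with an adjusted p of 0.147.

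Genes that act with TCF/LEF factors changed in both directions. Of 22 partners and pathway genes 6 rose and 5 fell (9.22% and 11.2% over all tested genes), with a median of -0.006. Corepressor genes did not move together. TLE3, CTBP1 and TLE1 (log2 fold change -0.47) fell, and TLE4 rose (0.24, adjusted p = 0.0251), though not with no low-count filter. TLE2 (0.01), TLE5 (-0.03) and CTBP2 (-0.04) did not pass. TLE1, TLE2, TLE4, TLE5 and CTBP2 are named after their values were seen. TLE3 was at 86.6 and 94.5 CPM in shELOVL5, against 136 CPM in both shNC libraries (log2 fold change -0.59, adjusted p = 0.0001), and CTBP1 had a log2 fold change of -0.37 (adjusted p = 0.000163). DVL3 and the beta-catenin coactivator gene BCL9L rose by 0.45 and 0.66 (adjusted p = 0.000152 and 0.000455). BCL9, the relative of BCL9L, leaned the other way (-0.28, adjusted p = 0.0533), and passed as lower by DESeq2 and with a replicate block. CTNNB1, the beta-catenin gene itself, named after its value was seen, had a log2 fold change of 0.05 (95% interval -0.04 to 0.15). Leaving out any 1 library left 2 or 3 that rose, BCL9L and DVL3 among them each time, and without shELOVL5 replicate 1, 3 fell.

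Of 14 common beta-catenin response genes 8 could be tested, 1 rose and 1 fell, against 9.22% higher and 11.2% lower over all tested genes. The median log2 fold change of the 8 was -0.65. No gene below that median passed with all 4 libraries, and several of them had at most 29 counts in any library. The libraries of KREMEN1 were scattered within both groups, with 387 and 951 counts in shELOVL5, against 436 and 930 in shNC. ZNRF3, named like KREMEN1 after its values were seen, had 45 and 90 counts in shELOVL5, against 71 and 179 in shNC (log2 fold change -0.93, adjusted p = 0.396), and passed with a replicate block (adjusted p = 0.0491) and without shNC replicate 1 (0.0416). RNF43, a ubiquitin ligase gene that dampens WNT signalling, had 176 and 182 counts in shELOVL5, against 70 and 76 in shNC (log2 fold change 1.25, adjusted p = 0.00334). NKD2, another WNT antagonist gene, fell (-0.62, adjusted p = 0.0197), but not without shELOVL5 replicate 1 (adjusted p = 0.143), shELOVL5 replicate 2 (0.0636) or shNC replicate 1 (0.165), nor with no low-count filter (0.0862). AXIN2 had 309 and 245 counts in shELOVL5, against 216 and 212 in shNC, a log2 fold change of 0.33 with an adjusted p of 0.209. SP5 had low counts, with 13 counts in both shELOVL5 libraries, against 26 and 23 in shNC.

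Of 16 genes for the NuRD and SIN3 complexes, through which Ikaros and BCL11B repress, 3 rose and 4 fell, with a median of -0.014. Among all tested genes 9.22% rose and 11.2% fell. RBBP4, a histone chaperone gene, had 322 and 311 CPM in shELOVL5, against 534 and 532 CPM in shNC (log2 fold change -0.75, adjusted p = 8.58e-07). The remodelling ATPase genes CHD4 and CHD3 rose by 0.24 and 0.25 (adjusted p = 0.0010 and 0.00383), and HDAC1 rose by 0.18 (adjusted p = 0.00799). CHD3 did not pass without shELOVL5 replicate 2 (adjusted p = 0.0561), nor HDAC1 without shELOVL5 replicate 1 (0.101). Only 2 genes fell by total counts alone and without either shNC library or shELOVL5 replicate 2, and 1 fell without shELOVL5 replicate 1 or with no low-count filter.

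Among other T-lineage transcription factors outside the TAL1 circuit, more genes rose than fell. Of 41 on the list 37 could be tested, 9 rose and 3 fell, with a median log2 fold change of 0.13. Over all tested genes 9.22% rose and 11.2% fell, with a median of 0.006. ID1, an inhibitor of E proteins, was at 63.6 and 63.1 CPM in shELOVL5, against 35.8 and 36.8 CPM in shNC (log2 fold change 0.80, adjusted p = 0.000107). ELF4, an ETS factor gene, rose by 1.03 and EOMES, a T-box factor gene of cytotoxic cells, by 0.69 (adjusted p = 0.000184 and 0.000494). MYCN had 13.6 CPM in both shELOVL5 libraries, against 25.3 and 25.7 CPM in shNC (-0.90, adjusted p = 0.000904). The other 6 that rose were RUNX3, ZBTB7A, ETS2, ZBTB7B, ID2 and FLI1, and the other 2 that fell were ZBTB1 and ZBTB16. Of these 8, RUNX3, ZBTB7A and ZBTB1 passed under all 12 alternatives. Without shELOVL5 replicate 1 or 2, 5 rose and 2 fell.

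The list of antigen receptor assembly genes also took in receptor constant, surrogate light chain, pre-T cell receptor and coreceptor genes. Those of the list that passed fell. Of 12 genes 11 could be tested, 4 fell and none rose (11.2% and 9.22% over all tested genes). The median log2 fold change was -0.41. It takes in the coreceptor genes CD4, CD8A and CD8B, with at most 70 counts in any library. Of the recombination genes only RAG1 fell. RAG2 missed the threshold, as did DNTT, named after its value was seen (log2 fold change 0.07, adjusted p = 0.89). PTCRA, a pre-T cell receptor gene named after its value was seen, had 50 and 32 counts in shELOVL5, against 21 and 16 in shNC. By edgeR it was the 1 gene of the list higher at an unadjusted p under 0.05 (log2 fold change 1.10, adjusted p = 0.102). DESeq2 and limma-voom gave no higher gene either. TRAC, the T cell receptor alpha constant gene, was at 128 and 115 CPM in shELOVL5, against 158 and 167 CPM in shNC (-0.41, adjusted p = 0.0011). IGLL1, a surrogate light chain gene, had 182 and 175 CPM in shELOVL5, against 243 and 261 CPM in shNC (-0.50, adjusted p = 8.48e-05). RAG1, a subunit of the recombinase, had 226 and 194 counts in shELOVL5, against 316 and 364 in shNC (-0.74, adjusted p = 0.00963). It did not pass without shELOVL5 replicate 2 (adjusted p = 0.0691) or shNC replicate 2 (0.0750), and TRBC2 (-0.38, adjusted p = 0.0105) did not pass without shELOVL5 replicate 2 (0.0786). RAG2, named after its value was seen, had 74 and 145 counts in shELOVL5, against 205 and 226 in shNC, and missed the threshold (log2 fold change -1.01, adjusted p = 0.0639). It passed as lower by DESeq2 (adjusted p = 0.00644), by limma-voom (0.0441), with a replicate block (0.0152) and without shELOVL5 replicate 2 (-1.63, adjusted p = 0.00654), and over all 12 alternatives its adjusted p reached 0.222. TRBC1 is nearly identical to TRBC2, and reads of the pair may have been split between them.

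**Figure D4:**
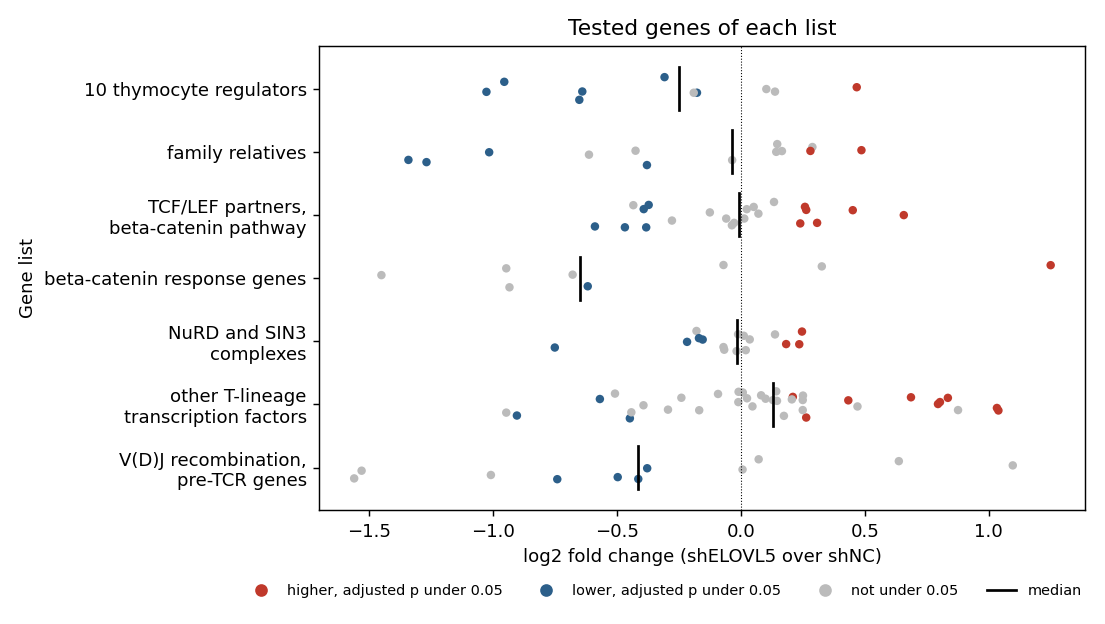
Log2 fold changes (shELOVL5 over shNC) of the tested genes of each list, with 1 point per gene, black lines for medians, and colours for direction among genes with an adjusted p under 0.05. The 10 thymocyte regulators have a median of -0.25 and the other T-lineage transcription factors one of 0.13.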

How the data were processed

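RNA of 2 shELOVL5 and 2 shNC libraries of J.gamma1 cells was sequenced from TruSeq libraries of total RNA, per the labels' protocols. The authors deposited whole-number read counts per Ensembl gene, not normalized. Per the submitters' processing notes, HISAT2 2.2.0, StringTie and hg38 were used, with no role or order given. The annotation, the counting step and any use of strand were not given in the sources used here. Symbols came from a gene name table, coordinates and exon lengths from GENCODE release 29 on GRCh38, and promoter sequences from RefSeq.

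Counts were fitted with edgeR 4.0.16 in R 4.3.3: filterByExpr with a minimum count of 10, TMM scaling, and the two-sided quasi-likelihood test with robust=TRUE and group as the only term. P-values were Benjamini-Hochberg adjusted over all 17461 tested identifiers. A standard error is the log2 fold change over the root of the F statistic. The fit pools spread over genes, so this error is not the spread of a gene's own libraries alone. Sampling noise did not account for the distance between replicates (chi-square per degree of freedom of 5.51 in shELOVL5 and 5.93 in shNC), so they were counted as separate libraries. The code was tested on simulated counts. The 12 alternatives were DESeq2 1.42.0, voom in limma 3.58.1, RLE scaling, total counts only, no filter, a minimum of 1 CPM in 2 libraries, robust=FALSE, a replicate block and each library left out. A further alternative took transcript length for exon length.

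The members and gene lists were chosen with earlier results of these data known. Named were ELOVL5, the members, up to 4 genes per list with the smallest p, the 2 most abundant genes of each list of other cell types and the 3 genes nearest to LEF1 and to ETV6. Of the marker genes so named, those at trace levels are given only as list sums. A further 2 genes of the marker lists are not reported here.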

Additional observations from a re-analysis of the deposited data

How the results depend on the processing

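The log2 fold changes of LEF1, SOX4, TOX, IKZF1, BCL11B and ETV6 kept their direction and passed under all 12 alternatives. Of 479 values under the alternatives for the 40 genes named by rule, other than marker genes, none changed direction, 457 stayed on their side of the threshold, 16 no longer passed and 6 newly passed, and DESeq2 gave no adjusted p for SP5. The same alternatives were run after seeing the data for 27 further genes, marker genes or genes named outside the rule. Of their 324 values 255 stayed on their side of the threshold, 54 no longer passed, 6 newly passed and 9 changed direction, all 9 of the genes SOX12, KREMEN1 and TRBC1, which missed the threshold under every alternative. SOX12 had a log2 fold change of 0.00 by total counts alone, and TRBC1 had -0.001 by DESeq2, -0.17 by limma-voom and -0.12 with a replicate block. With 1 library left out at a time, SOX12 ran from -0.135 to 0.061, KREMEN1 from -0.916 to 0.625 and TRBC1 from -0.969 to 0.579. The number of regulators higher in shELOVL5 was 3 by total counts alone, and 2 by DESeq2, with a filter of 1 CPM in 2 libraries or with a replicate block. With each library left out in turn it was 1 to 2, and the number lower was 5 to 6. With no low-count filter, which tests 31428 identifiers, 899 genes of all were higher, and the lists gave 0 higher relatives, 2 higher TCF/LEF partners, 0 lower beta-catenin response genes and 1 lower NuRD or SIN3 gene. By total counts alone 2 NuRD or SIN3 genes were lower. Higher relatives numbered 0 by limma-voom and with robust=FALSE.

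Replicate numbers were shared between groups, but nothing in the labels pairs them. Across all tested genes, replicate differences in shELOVL5 and shNC were not correlated (Pearson r = -0.0148). That value weighs noisy low-count genes like any other, so it cannot show that no genes shared a replicate effect. KREMEN1 counts were higher in replicate 2 of both groups, whereas TRBC1 counts were higher in replicate 2 of shELOVL5 and in replicate 1 of shNC. With a replicate block 1551 genes were higher and 1902 lower, 1 relative was higher and 2 beta-catenin response genes were lower.

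Leaving out 1 library at a time gave 696 to 1347 genes higher and 1176 to 1616 lower over all genes. The lists then gave 0 to 2 higher and 4 lower relatives, 2 to 3 higher and 3 to 5 lower TCF/LEF partners, and 1 higher and 0 to 1 lower response genes. NuRD and SIN3 genes gave 2 to 3 higher and 1 to 2 lower, other T-lineage factors 5 to 7 higher and 2 to 3 lower, and receptor assembly genes 0 higher and 3 to 5 lower. The cause of these shifts was not tested. Each group had 2 libraries, which leaves 2 residual degrees of freedom. A miss of the threshold by TCF7, SATB1 or IKZF5 does not show that they did not change.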
